A study of Mus musculus with 24 samples.

Results

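The 6 genes described here, Grin1, Grin2a, Grin2b, Grin2c, Grin2d and Grin3a, encode subunits of the NMDA receptor, and were taken by name from the 33902 symbols of a single-nucleus RNA sequencing (snRNA-seq) count table. All 6 had a row in the table. They were chosen by name and not by a cut on measured values, though with earlier results of these data known. Nuclei came from the microdissected ventral hippocampus of male mice of 2 inbred strains, C57BL/6J (B6) and DBA/2J (D2), aged 10 to 16 weeks, with no treatment named in the labels. Tissue of about 2 animals was combined into each replicate, and each strain had 2 libraries per assay. The tables number these libraries 2 and 3, which is how they are named below. In the snRNA-seq experiment neuronal and non-neuronal nuclei were mixed after a sort by antibody against NeuN, which is found in the nuclei of neurons. A second assay, single-nucleus ATAC sequencing (snATAC-seq), measured open chromatin without that sort. Because the values are sums over the nuclei of a cell type, less RNA per nucleus and a different mix of nuclei within a cell type cannot be told apart, and p-values measure the spread between libraries of pooled animals.

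NMDA receptors are glutamate-gated channels of excitatory synapses that pass calcium, need a co-agonist (glycine or D-serine) as well as glutamate, and are required for many forms of synaptic plasticity in the hippocampus. Each receptor contains the obligatory glycine-binding subunit GluN1, encoded by Grin1, together with glutamate-binding GluN2 subunits (Grin2a to Grin2d) or glycine-binding GluN3 subunits (Grin3a, Grin3b). The GluN2 subunit sets the speed of channel closing and the block by magnesium, and GluN2B to GluN2A replacement in forebrain synapses is a known feature of postnatal development.

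In the GRCm38 annotation all 6 genes lie on the minus strand. Grin1 (ENSMUSG00000026959.13) occupies chromosome 2, 25291181 to 25319187, and Grin2c (ENSMUSG00000020734.13) occupies chromosome 11, 115249169 to 115267243. These were the shortest members, with 28.0 kb and 18.1 kb between the ends of the gene model. Grin2d (ENSMUSG00000002771.12, chromosome 7, 45831883 to 45878378) spans 46.5 kb and Grin3a (ENSMUSG00000039579.15, chromosome 4, 49661611 to 49845744) spans 184 kb. Grin2a (ENSMUSG00000059003.12, chromosome 16, 9567898 to 9995560) and Grin2b (ENSMUSG00000030209.14, chromosome 6, 135713233 to 136173511) are the longest, at 428 kb and 460 kb.

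The RefSeq promoter table for GRCm38.p6 held 3 of the 6 members, Grin1, Grin2c and Grin2d; Grin2a, Grin2b and Grin3a had no entry. The 250 bases before the start of Grin1 (chr2:25319188-25319437, minus strand) and of Grin2c (chr11:115267244-115267493, minus strand) are shown because these members had the most contrasting patterns over cell types, a transcript of all neurons and a transcript of astrocytes, and both starts lie inside an open chromatin peak. Capitals mark the GC box GGGCGG, counted without overlap and searched on both strands, so that CCGCCC also counted.
Grin1: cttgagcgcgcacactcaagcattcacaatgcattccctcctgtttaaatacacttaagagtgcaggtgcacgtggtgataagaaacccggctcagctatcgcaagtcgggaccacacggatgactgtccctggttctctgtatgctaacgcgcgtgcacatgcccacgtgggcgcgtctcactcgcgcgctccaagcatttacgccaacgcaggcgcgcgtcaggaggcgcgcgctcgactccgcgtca
Grin2c: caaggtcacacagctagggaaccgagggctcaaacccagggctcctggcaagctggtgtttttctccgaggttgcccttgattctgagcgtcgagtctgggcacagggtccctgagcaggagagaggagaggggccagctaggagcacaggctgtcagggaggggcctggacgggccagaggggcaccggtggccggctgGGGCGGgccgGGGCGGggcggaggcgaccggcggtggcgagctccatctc
The Grin1 sequence held 0 GC boxes and 27 CpG dinucleotides at a GC content of 58.8%, and the Grin2c sequence held 2 boxes and 15 CpGs at 68.8%. A further match in Grin2c begins on the last base of the second box and was not counted. At least 1 box was found in 32.7% of the 32851 promoters in the table, whose median was 6 CpGs in the same window. The matches describe the letters of these windows only.

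The snRNA-seq table gave 68 columns, 17 cell types in each of the 4 libraries, with 43048686 to 56452272 counts per library and 139713 to 11352265 per column, from 30880 nuclei in all. The cell types were named by the authors: 8 excitatory neuron types, 3 inhibitory types, the CR-CR neurons and 5 glial and vascular types. Defining markers were highest under the matching label for 8 types (Exc-DG, Exc-CA3, CR-CR and the 5 glial and vascular types), whereas of 3 CA1 markers only 1 was highest in Exc-CA1-Fras1, where Wfs1 ranked 10 among the 17 types. No marker list was held for Exc-ENT, Exc-Gpc6 or Exc-Cdh12, which are called by their labels. Levels are given as CPM, the counts of a gene per 1000000 counts of its column after scaling by the trimmed mean of M-values (TMM), as the mean ± SD over 4 libraries, and as descriptions, since the cell types were clustered on the same transcripts. Neighbours in an order are called separate only where the ranges of the 4 libraries did not overlap.

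Grin1, the obligatory subunit, followed the division between neurons and other cells. In Exc-DG, the granule cells of the dentate gyrus, it stood at 547 and 520 CPM in B6 libraries 2 and 3 and at 570 and 537 CPM in D2 libraries 2 and 3, the highest mean of any type (543 ± 21.1, n = 4). The 8 excitatory types covered means of 411 to 543 CPM, the inhibitory types 310 to 345 CPM, and the CR-CR neurons, marked by Reln and Trp73, 143 ± 22.0 CPM (n = 4). Glial and vascular types had 30.6 to 46.9 CPM. Of the 16 pairs of neighbours in this order, 13 overlapped, and the 3 gaps lay between the excitatory and the inhibitory types, between the inhibitory types and CR-CR, and between CR-CR and the glial types. Within the excitatory types no neighbours were separate.

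Grin2a, the subunit of fast-closing receptors, and Grin2b, that of slower ones, spread over a wider range within neurons. Grin2a was highest in Exc-CA1-Galntl6 (4141 ± 271 CPM, n = 4), Exc-DG (4064 ± 430) and Inh-Lamp5 (3578 ± 364), which overlapped as neighbours, and then fell through Exc-CA3 (2725 ± 247) and Exc-ENT (1000 ± 167) to Inh-CGE (680 ± 92.3) and Inh-MGE (553 ± 40.0). The Inh-Lamp5 interneurons were thus above Exc-CA3 with no overlap, while the other inhibitory types were below every excitatory type. Grin2b was also highest in Exc-CA1-Galntl6 (3528 ± 103 CPM, n = 4), separate from Exc-DG at 2637 ± 87.9, but its order differed among interneurons, with Inh-CGE (2049 ± 26.1) above Inh-MGE (1474 ± 47.0) and Inh-Lamp5 lowest of the 3 (1250 ± 75.1). In the order of Grin2b 8 of 16 neighbour pairs were separate, against 5 of 16 for Grin2a. CR-CR neurons had 237 ± 36.3 CPM of Grin2a and 711 ± 277 CPM of Grin2b (n = 4). Grin2b was separate from the glial and vascular types, which reached 418 CPM against 460 CPM in the lowest neuronal library, while for Grin2a the highest NN-MGC library (222 CPM) lay above the lowest CR-CR library (194 CPM).

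The ratio of Grin2a to Grin2b counts within a library needs no scaling between libraries and set Inh-Lamp5 apart from the other inhibitory types. Its log2 was highest in Inh-Lamp5, with B6 values of 1.59 and 1.73 and D2 values of 1.37 and 1.36. The mean was lowest among neurons in Inh-CGE, at -1.45 and -1.44 in B6 and -1.67 and -1.84 in D2. The libraries of Inh-CGE overlapped those of Inh-MGE (-1.59 to -1.29) and CR-CR (-2.04 to -1.24). These values compare 1 ratio between types and not the amounts of the 2 transcripts, whose genes differ in length. It lay above 0 in every library of 4 types (Inh-Lamp5, Exc-DG, Exc-CA1-Galntl6 and Exc-CA3) and below 0 in every library of 10. In 13 of 17 types both D2 libraries lay below both B6 libraries and in 0 above, and 11 of those 13 were among the 12 neuronal types, with Inh-MGE the neuronal exception. All 17 types share the same 4 libraries and are not independent, and ratios of other gene pairs were not counted. The D2 minus B6 difference in neurons ran from -0.46 (CR-CR) to -0.05 (Inh-MGE) on the log2 scale. With 2 libraries against 2 the exact two-sided permutation test cannot go below p = 0.33, the value for each of the 13 types, so no ratio could pass this test.

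**Figure D1:**
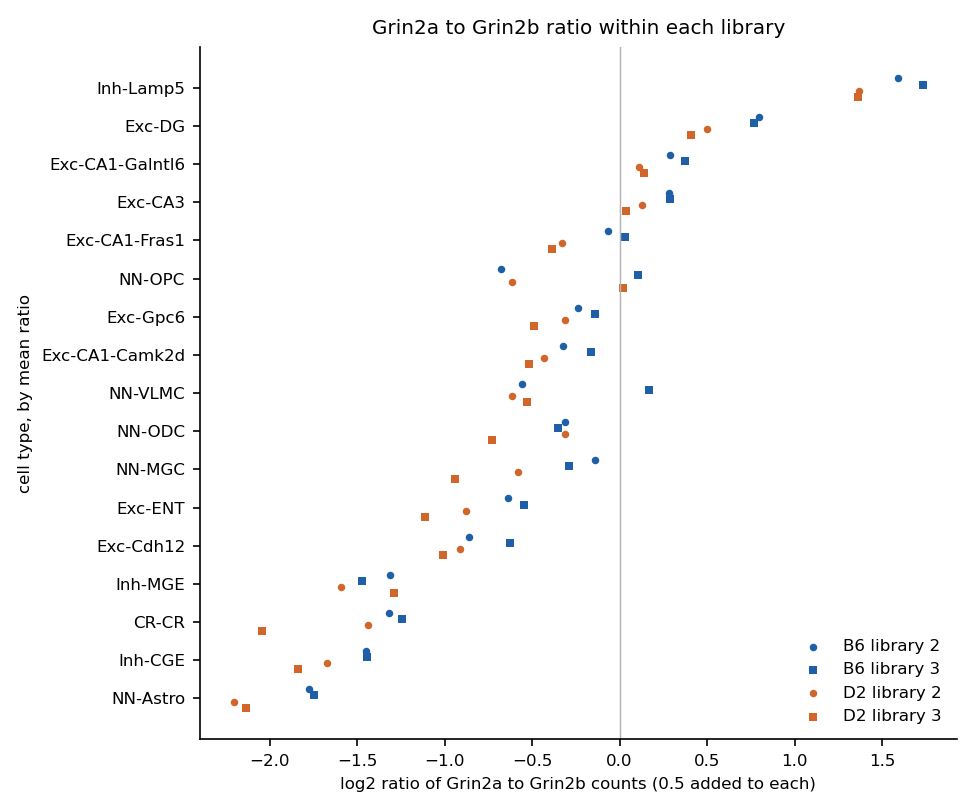
Log2 ratio of Grin2a to Grin2b counts (x axis, 0.5 added to each count) in each cell type (y axis, ordered by the mean), with 1 point per library, blue for B6 and orange for D2, circles for library 2 and squares for library 3. Inh-Lamp5 sits at 1.36 to 1.73 and Inh-CGE at -1.84 to -1.44, and the D2 points lie left of the B6 points in 13 of 17 types.

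Grin2c was a transcript of astrocytes in these data. NN-Astro had 239 and 223 CPM in B6 libraries 2 and 3 and 220 and 186 CPM in D2 libraries 2 and 3, or 720, 695, 720 and 648 counts. Every other type had a mean of at most 8.04 CPM (NN-VLMC, 15 counts over 4 libraries), and the gap from NN-Astro to NN-VLMC was the only separate neighbour pair of 16. In Exc-DG, 35 counts over the 4 libraries gave 1.05 ± 0.228 CPM (n = 4). Aqp4, Gja1 and Slc1a2, which define astrocytes, were highest in the same cell type.

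Grin2d, found in the adult mainly in interneurons, was low everywhere and had its highest means in the 3 inhibitory types, at 61.3 ± 2.33 CPM in Inh-Lamp5, 57.8 ± 4.43 in Inh-CGE and 49.4 ± 4.71 in Inh-MGE (n = 4). The next was Exc-Gpc6 at 40.3 ± 12.1 CPM, and the lowest NN-MGC at 7.00 ± 7.02 CPM with 24 counts over 4 libraries. All 16 neighbour pairs overlapped, so the order is a gradient without steps at this depth.

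Grin3a, whose subunit lowers calcium passage and magnesium block, was led by a glial type. NN-OPC, the oligodendrocyte precursors marked by Pdgfra and Cspg4, had 511 and 595 CPM in B6 and 369 and 414 CPM in D2. Inh-MGE followed at 344 and 378 CPM in B6 and 319 and 358 CPM in D2, overlapping with NN-OPC but separate from Inh-Lamp5 (231 ± 29.2, n = 4). Excitatory types ranged from 183 ± 55.6 CPM in Exc-CA1-Galntl6 to 17.6 ± 3.47 in Exc-Gpc6, and Exc-DG held only 58.5 ± 5.16. Astrocytes (138 ± 17.1 CPM) stood above oligodendrocytes (24.1 ± 4.90) and microglia (4.49 to 17.5 over the libraries), so Grin3a did not follow the split of Grin1 between neurons and glia. Grin3b, the remaining NMDA receptor gene, reached at most 1.66 CPM in any type and was too low to be tested in any.

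**Figure D2:**
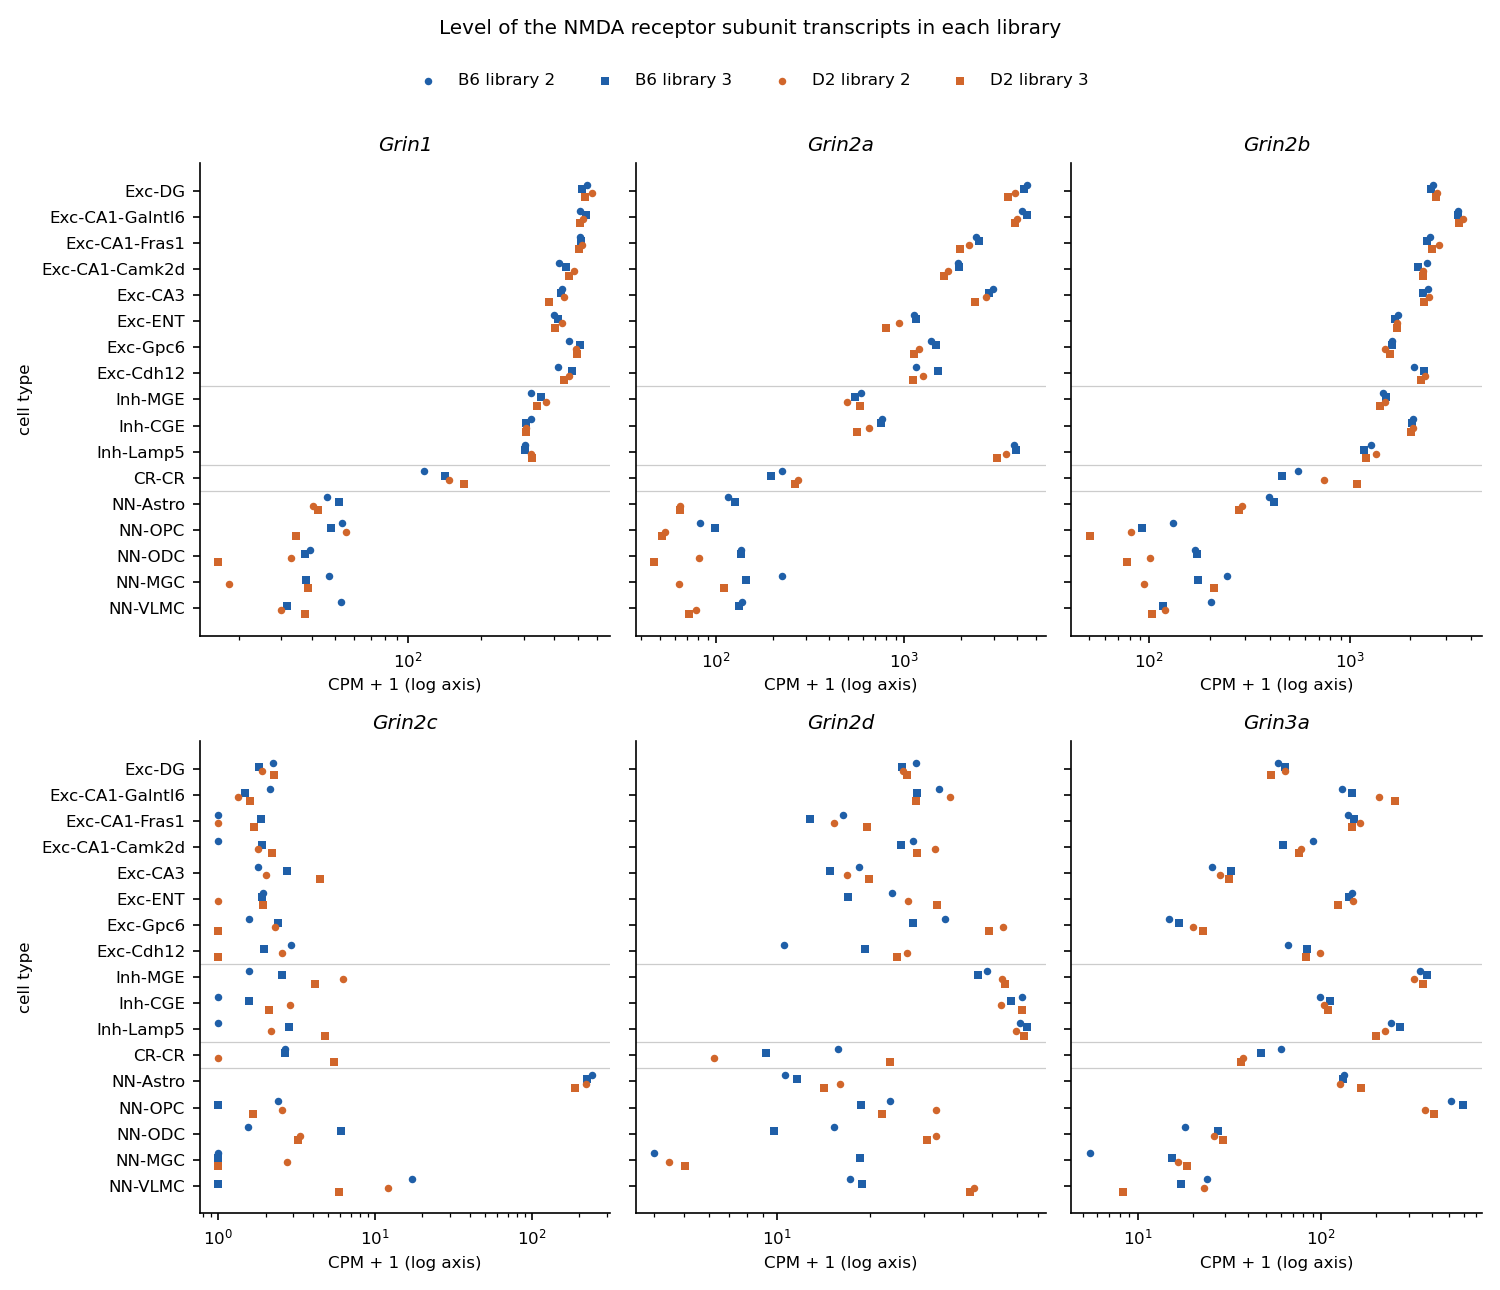
Level of each of the 6 subunit transcripts (x axes, CPM + 1 on a log axis) in the 17 cell types (y axes), with 1 point per library, blue for B6 and orange for D2, circles for library 2 and squares for library 3. Grin1 and Grin2b separate neurons from the 5 glial and vascular types, Grin2a does so except where NN-MGC (up to 222 CPM) overlaps CR-CR (down to 194 CPM), Grin2c stands out in NN-Astro (217 CPM against at most 8.04 CPM elsewhere), and Grin3a is highest in NN-OPC (472 CPM).

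Between genes, levels were compared per kb of the annotated span, since introns were counted. On this scale Grin1 led in Exc-DG at 19.4 ± 0.752 CPM per kb, followed by Grin2a (8.34 to 10.6 over the libraries), Grin2b (5.73 ± 0.191), Grin2d (0.546 ± 0.0273), Grin3a (0.318) and Grin2c (0.0583 ± 0.0126). Per kb of exon the order in Exc-DG differed, with Grin2a at 227, Grin2b at 106 and Grin1 at 56.0 CPM. Which length suits these counts was not tested, so the order between genes depends on the choice. Of the summed Grin2 level per kb of span, Grin2a made up 67.0% in Inh-Lamp5 and 60.0% in Exc-DG, while Grin2b made up 60.7% in Inh-CGE and 56.2% in Inh-MGE. In NN-Astro Grin2c made up 90.7%, at 10.3 to 13.2 CPM per kb over the libraries, where Grin1 had 1.58 ± 0.183.

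Values of Grin1, Grin2a and Grin2b in glia have to be set beside free RNA, which gives droplets counts of genes that their nuclei do not transcribe. The excitatory neuron marker Slc17a7, a vesicular glutamate transporter, stood in the 5 glial and vascular types at 11.4% to 17.8% of its Exc-DG level. Grin1 stood at 5.62% to 8.63%, Grin2a at 1.73% to 3.29% and Grin2b at 3.33% to 13.1% of theirs, with the top of the Grin2b range in NN-Astro, where Slc17a7 was at 14.6%. A second marker, Camk2a, stood at 3.89% to 7.11%. The excitatory markers Slc17a6 and Neurod6 cannot be read against Exc-DG, which hardly expressed them. They were low in Exc-DG (0.725 and 5.93 CPM) and higher in the glial and vascular types (1.99 to 3.50 and 7.94 to 18.9 CPM). Their highest means lay in other neurons, at 96.9 CPM in CR-CR for Slc17a6 and 155 CPM in Exc-Gpc6 for Neurod6. Grin2a was below Slc17a7 and Camk2a in each of the 5 types. Grin1 and Grin2b were below Slc17a7 in each, but Grin1 was above Camk2a in NN-Astro (8.15% against 7.11%), NN-OPC (8.63% against 3.89%) and NN-VLMC (6.82% against 6.10%), and Grin2b was above it in NN-Astro (13.1%). The part of free RNA in these levels was not tested.

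Among the genes nearest in pattern over the 17 cell types, chosen by Pearson's r of log2(CPM + 1) among 14777 candidates, Grin1 was followed by Dmtn (r = 0.988), Olfr55 (0.986) and Gm14703 (0.986). For Grin2a the nearest were Kcnj6, a potassium channel (0.971), Plppr4 (0.970) and Camkv (0.963), and for Grin2b they were Gm14330 (0.993), Gm14329 (0.991) and Gm1043 (0.978). Gm14330 and Gm14329 lie inside Grin2b on the opposite strand, and the use of strand in counting was not given in the sources used here. Grin2c was nearest to Aqp9 (0.977), Slco1b2 (0.973) and Gm47568 (0.970). The likeness of Grin2d to Rab6a (0.860), Kdm5d (0.832) and Ergic2 (0.822) and of Grin3a to Spred3 (0.835), Shc3 (0.817) and Mrps5 (0.813) was lower. All points share the same 4 libraries, and the r values are descriptions.

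The second question was whether the strains differed within a cell type, tested by edgeR's quasi-likelihood test of D2 minus B6 over all symbols of each type with Benjamini-Hochberg adjustment. The 6 members gave 86 tested pairs of member and cell type, of which 20 passed at adjusted p under 0.05, 14 of them lower and 6 higher in D2. Of these 6, Grin2c in Inh-MGE was tested only because its D2 libraries reached the level needed. Each type is given beside the share of all its transcripts that passed. In the excitatory types members passed in 1 of 6 tests in Exc-DG (36.0% of all transcripts passed), 2 of 5 in Exc-CA1-Galntl6 (35.0%), 0 of 5 in Exc-CA3 (32.1%), 1 of 5 in Exc-CA1-Fras1 (28.5%), 2 of 5 in Exc-ENT (28.0%), 2 of 5 in Exc-Gpc6 (19.7%), 0 of 5 in Exc-CA1-Camk2d (19.4%) and 0 of 5 in Exc-Cdh12 (8.44%). In the other neurons they passed in 1 of 6 in Inh-MGE (21.0%), 0 of 5 in Inh-CGE (15.1%), 0 of 5 in Inh-Lamp5 (12.1%) and 1 of 4 in CR-CR (4.26%). Glial and vascular types gave 2 of 6 in NN-Astro (26.2%), 3 of 5 in NN-ODC (19.0%), 3 of 5 in NN-OPC (16.2%), 1 of 4 in NN-MGC (10.4%) and 1 of 5 in NN-VLMC (7.87%). In the neurons 10 of 61 pairs passed and in the glial and vascular types 10 of 25, and in 8 of the 12 neuronal types the members' share was below the background. Of the 20 pairs 8 passed under every alternative analysis: Grin2a in Exc-DG, Exc-ENT, NN-Astro and NN-ODC, Grin2b in NN-Astro and NN-ODC, and Grin3a in Exc-CA1-Galntl6 and NN-OPC. DESeq2 called 11 of the 20.

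**Figure D3:**
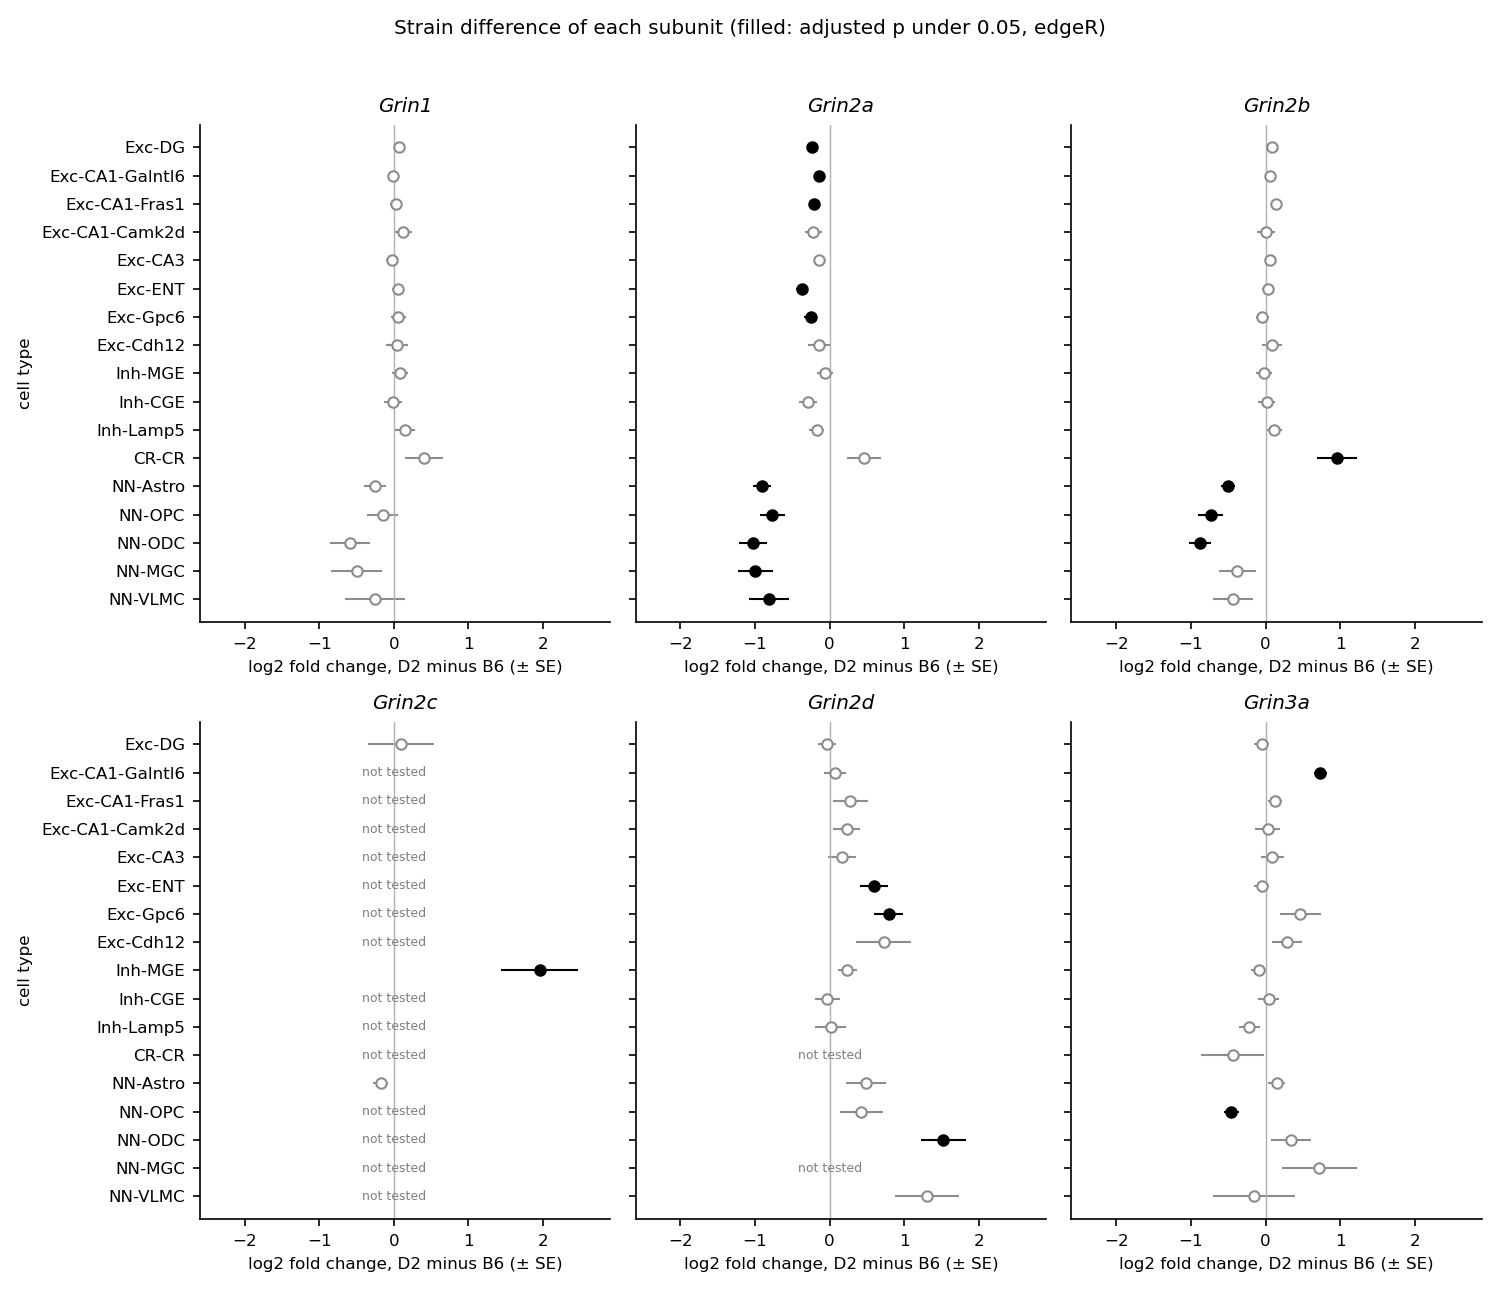
Log2 fold change of D2 minus B6 (x axes, bars ± SE) for each subunit transcript in each cell type (y axes); filled points have an edgeR adjusted p under 0.05, and types where a transcript was too low are marked as not tested. Grin2a lies left of 0 in 16 of 17 types and is filled in 10, Grin1 is filled in none, and Grin3a is filled on opposite sides in Exc-CA1-Galntl6 (0.74) and NN-OPC (-0.46).

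Grin1 passed in 0 of 17 types by edgeR and in 0 by DESeq2, with 1 type at unadjusted p under 0.05, NN-ODC. Its log2 fold changes in the 12 neuronal types lay between -0.03 and 0.40. Without D2 library 2 Grin1 passed in NN-ODC (log2 fold change -1.17, adjusted p = 0.00823, edgeR), where its 4 libraries held only 219 counts.

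Grin2a fell in D2 in 10 of 17 types, and its fold change was negative in 16 of 17, the exception being CR-CR. Exc-DG had 4521 and 4306 CPM in B6 and 3863 and 3568 CPM in D2, without overlap. The log2 fold change was -0.24 ± 0.06 (SE, adjusted p = 0.00564, edgeR) in this type, which had the most nuclei (5101). Exc-ENT had 1120 and 1152 CPM in B6 and 932 and 796 in D2, a log2 fold change of -0.37 ± 0.08 (adjusted p = 0.000223, edgeR). Strains were separate, with D2 below, in 14 of 17 types, and the neuronal differences were small, from -0.37 to -0.07 in the 11 types other than CR-CR. The 17 types share the same 4 libraries, and how often other transcripts were separate in this way was not counted.

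Among neurons Grin2a also fell in Exc-CA1-Galntl6 (-0.14), Exc-CA1-Fras1 (-0.20) and Exc-Gpc6 (-0.25). Each of these rested on particular libraries. The call in Exc-CA1-Galntl6 was lost without B6 library 3 (adjusted p = 0.113, edgeR) or D2 library 3 (0.0516), that in Exc-CA1-Fras1 without B6 library 3 (0.129) or D2 library 3 (0.193), and that in Exc-Gpc6 without B6 library 3 (0.175), D2 library 2 (0.124) or D2 library 3 (0.319) and with the library number as a replicate block (0.103). Exc-CA3 did not pass (-0.14, adjusted p = 0.134, edgeR), but passed without D2 library 2 (0.00577), with the library number as a replicate block (0.0401) and with no filter beyond 1 count (0.0292). Exc-Cdh12 (-0.14) passed without B6 library 2 (-0.31, adjusted p = 0.0385, edgeR).

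Genes of long span shifted in the same direction as Grin2a. Among transcripts whose gene spans at least 300 kb the median log2 fold change was below 0 in all 17 types, from -0.38 to -0.04, against 0.01 to 0.06 for shorter genes. In Exc-DG 220 of 585 such genes fell and 65 rose, with a median of -0.14. Grin2b, which is longer than Grin2a, passed as lower in 0 of 12 neuronal types. The part of gene span in the fall of Grin2a was not tested.

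Glial and vascular types showed falls in D2 of both Grin2a and Grin2b, at levels whose relation to free RNA is given above. The falls of Grin2a were larger than in neurons, while the fold change of Grin2b was negative in only 2 of 12 neuronal types. Grin2a fell in NN-Astro (115 and 124 CPM in B6, 62.9 and 63.5 in D2, log2 fold change -0.91 ± 0.12), NN-ODC (-1.03), NN-MGC (-0.99), NN-OPC (-0.77) and NN-VLMC (-0.82). Grin2b fell in NN-Astro (393 and 418 CPM in B6, 290 and 279 in D2, -0.50 ± 0.10), NN-ODC (-0.88) and NN-OPC (-0.74). The calls of Grin2a in NN-MGC, NN-OPC and NN-VLMC and of Grin2b in NN-OPC were lost with DESeq2 (adjusted p of 0.134, 0.106, 1.00 and 0.159), that in NN-MGC also without B6 library 2 (0.0534, edgeR), that of Grin2b in NN-OPC also without B6 library 2 (0.106) or D2 library 3 (0.222), and that in NN-VLMC without any 1 library.

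The summed level of excitatory neuron markers moved with these calls, carried by Camk2a and Slc17a7. The sum of Slc17a7, Slc17a6, Camk2a and Neurod6, of which 0 of 4 were at 0, was 180 to 190 CPM in B6 and 104 to 142 CPM in D2 in NN-Astro. It was 188 to 190 against 96.8 to 140 CPM in NN-ODC, 107 to 120 against 67.3 to 98.8 in NN-OPC, 183 to 201 against 128 to 155 in NN-MGC and 153 to 165 against 109 to 114 in NN-VLMC. The strains did not overlap in any of the 5. Camk2a was itself lower in D2 in Exc-DG, at 1322 and 1330 CPM in B6 and 1120 and 1062 in D2. Slc17a7 overlapped between strains there (339 and 376 against 348 and 381 CPM). Of the tested markers 2 of 3 fell in NN-Astro (Camk2a and Slc17a7), 1 of 3 in NN-ODC, 1 of 3 in NN-OPC, 0 of 3 in NN-MGC and 0 of 2 in NN-VLMC, and none rose. Neurod6 went the other way, with both D2 libraries above both B6 libraries in NN-ODC (17.1 and 20.7 CPM against at most 15.1), NN-MGC (27.7 and 24.2 against at most 13.4) and NN-OPC (9.33 and 9.42 against 6.28 and 6.73), at 9 to 36 counts per library in NN-ODC and NN-OPC and 7 to 18 in NN-MGC, and did not pass in any of the 3. Neurod6 was itself higher in D2 in Exc-Gpc6, where its mean was highest (124 and 103 CPM in B6, 185 and 208 in D2). The same held in Exc-CA1-Galntl6 (81.2 and 70.7 against 129 and 134 CPM), while the strains overlapped in Exc-Cdh12. The markers' part in the differences of Grin2a and Grin2b in glia was not tested.

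**Figure D4:**
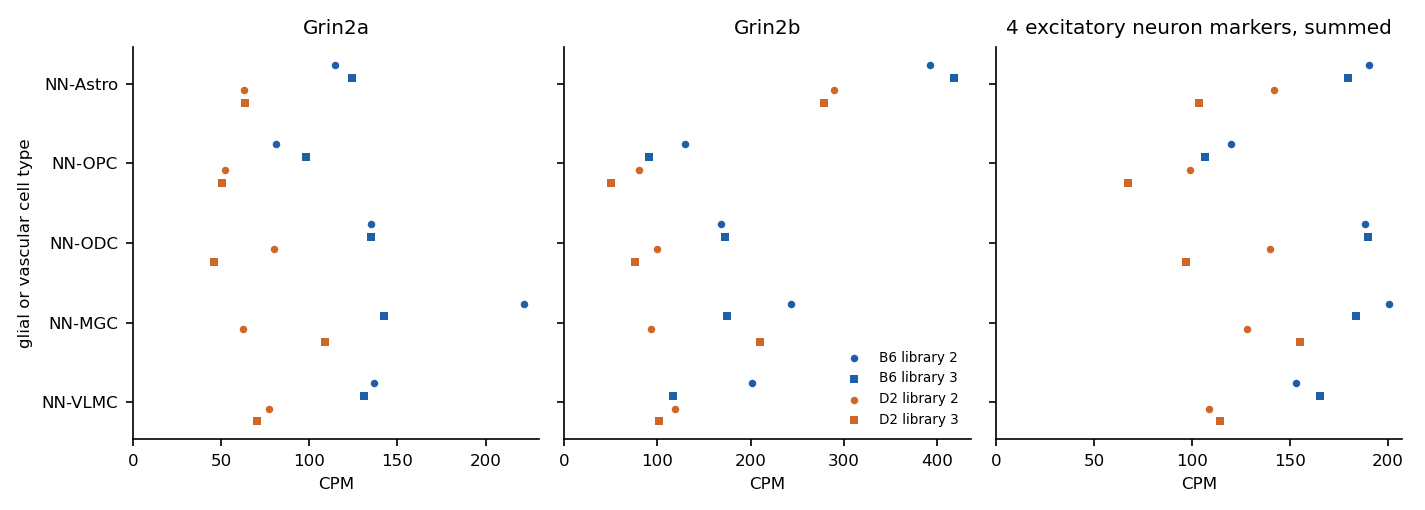
Levels in CPM (x axes) of Grin2a, Grin2b and the sum of 4 excitatory neuron markers in the 5 glial and vascular cell types (y axis), with 1 point per library, blue for B6 and orange for D2, circles for library 2 and squares for library 3. For Grin2a and for the marker sum every D2 point lies left of both B6 points in its type, and the highest Grin2a point (222 CPM, NN-MGC in B6) lies above the lowest neuronal library (194 CPM, CR-CR).

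In neurons Grin2b passed in 1 of 12 types, CR-CR, where it was higher in D2. It had 553 and 460 CPM in B6 and 743 and 1086 CPM in D2, without overlap (log2 fold change 0.96 ± 0.26, adjusted p = 0.0466, edgeR). The D2 values came from 45 and 46 nuclei, against 171 and 138 in B6. In the same columns the sum of the Cajal-Retzius markers Reln, Trp73 and Ndnf was 4556 to 5149 CPM in B6 and 1126 to 2747 CPM in D2, and that of the excitatory markers 251 to 266 against 270 to 324. The part of this difference between the columns in the result was not tested. The call was lost in 7 of 9 alternatives, among them DESeq2 (0.106) and leaving out B6 library 2 (0.330), B6 library 3 (0.652) or D2 library 3 (0.1004). Without D2 library 3 Grin2b also passed in Exc-CA1-Fras1 (0.18, adjusted p = 0.0428, edgeR) and in NN-MGC (-1.07, 0.000535), and NN-MGC passed as well without B6 library 3 (-0.62, 0.0280).

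Grin2c did not differ in astrocytes beyond the spread of the libraries (-0.18 ± 0.10, adjusted p = 0.231, edgeR), although both D2 libraries lay below both B6 libraries. It was tested in 3 types. In Inh-MGE, a type with hardly any Grin2c, it was higher in D2 at 21 and 9 counts against 2 and 6 in B6 (1.95 ± 0.52, adjusted p = 0.0118, edgeR). Only the D2 libraries (5.22 and 3.11 CPM, against 0.576 and 1.56 in B6) reached the level needed for testing. Grin2c thus entered this test through the strain where it was higher, which limits what the call shows. The summed level of the 3 astrocyte markers in Inh-MGE was 68.0 to 69.3 CPM in B6 and 61.6 to 62.3 CPM in D2. That call was lost with DESeq2 (0.279) and without B6 library 2 (0.129) or D2 library 2 (0.347).

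Grin2d rose in D2 in 3 of 15 types tested and fell in 0. In Exc-Gpc6 it had 34.1 and 26.6 CPM in B6 and 53.0 and 47.6 in D2 (0.79 ± 0.19, adjusted p = 0.00187, edgeR). Exc-ENT had 22.7 and 16.0 CPM against 25.5 and 32.1 (0.59 ± 0.19, adjusted p = 0.0158), and NN-ODC held 26 and 21 counts against 41 and 40 (1.52 ± 0.30, adjusted p = 0.000387). The 3 inhibitory types where Grin2d was highest did not pass (-0.03 to 0.24). None of the 3 calls held with DESeq2 (adjusted p of 0.207, 0.284 and 0.0571), that in Exc-Gpc6 was lost without B6 library 3 (0.0610, edgeR) and that in Exc-ENT without B6 library 3 (0.260) or D2 library 3 (0.187). Kdelr1, on the opposite strand, overlaps the start of the Grin2d model and reads of the 2 cannot be told apart without strand.

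Grin3a changed in opposite directions in 2 types. In Exc-CA1-Galntl6 it stood at 129 and 147 CPM in B6 and at 207 and 250 CPM in D2, without overlap, and the log2 fold change was 0.74 ± 0.09 (adjusted p = 8.04e-06, edgeR). In NN-OPC it stood at 511 and 595 CPM in B6 and at 369 and 414 CPM in D2, also without overlap, with a log2 fold change of -0.46 ± 0.10 (adjusted p = 0.000153, edgeR). Both calls held under all 9 alternatives, with log2 fold changes of 0.59 to 0.87 and of -0.56 to -0.36. The other CA1 types did not pass, at 0.12 ± 0.10 in Exc-CA1-Fras1 and 0.03 ± 0.17 in Exc-CA1-Camk2d. Ppp3r2 and the pseudogene Gm12459 lie inside Grin3a on the same strand, with 118 and 0 counts in B6 and 144 and 37 in D2 over all types, so reads could be split between them.

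Whether the strain difference itself varied between cell types was tested for all symbols in 1 edgeR fit over the 68 columns, with library and cell type as terms. It varied for 4 of the 6 members, against 15.2% of the 21050 transcripts tested: Grin2b (adjusted p = 1.25e-05), Grin3a (5.24e-05), Grin2a (0.000126) and Grin2d (0.000638). Grin1 (0.541) and Grin2c (0.546) did not pass. In the 12 neuronal types alone Grin3a (0.000652) and Grin2b (0.0144) passed, while Grin2a (0.590) and Grin2d (0.127) did not. Grin2d was also lost without B6 library 3 (0.123) and without D2 library 2 (0.0641). For Grin2a no variation between neuronal types was thus detectable.

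Lists of genes that work with the receptor were counted in the same fits. Of 12 scaffold genes of the postsynaptic density, all tested in Exc-DG, 4 fell in D2 and 0 rose, where 13.8% of all transcripts fell and 22.2% rose, so that the share passing in either direction was near the 36.0% over all transcripts. The list's median log2 fold change was -0.17 beside 0.06 over all transcripts. Genes spanning at least 300 kb had a median of -0.14 in the same type, and the part of gene span in the list's median was not tested. Over the 17 types scaffold genes passed in 0 to 6 tests per type, and the called genes fell except 1 each in Exc-Gpc6 and CR-CR. Dlg2, a PSD-95 relative that anchors the receptor, fell in 11 of 17 types. In Exc-DG it had 6436 and 6262 CPM in B6 and 5576 and 5092 in D2 (-0.24 ± 0.06, adjusted p = 0.00451, edgeR). Dlgap2, a partner of these scaffolds, fell in 9 types and rose in CR-CR, with -0.13 in Exc-DG (adjusted p = 0.0998), and Shank1 fell in 7 types and in Exc-DG by 0.40 on the log2 scale (0.00146).

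Of 12 genes that signal downstream of the receptor 3 rose and 2 fell in Exc-DG, again near the background of 36.0%, with a median of -0.11 beside the same 0.06. Rasgrf1, a Ras activator known to bind NMDA receptors, rose in 9 of 17 types, in Exc-DG from 461 and 483 CPM in B6 to 653 and 842 in D2 (0.68 ± 0.10, adjusted p = 6.6e-05, edgeR). Camk2a, the kinase activated by calcium through the receptor, fell in 7 types and in Exc-DG by 0.27 (0.00234). Of the co-agonist and glycine handling genes 1 of 10 tested in Exc-DG passed, below the 36.0% of all transcripts, and over all types at most 3 did. Dao, which degrades D-serine, was called higher in D2 in 2 of the 3 types where it could be tested. These were NN-ODC and Exc-CA1-Galntl6 (1.48), and Dao was at 0.89 in Exc-DG (0.130). In NN-ODC it had 1.10 and 0.419 CPM in B6 against 7.78 and 8.13 in D2 (log2 fold change 3.43 ± 0.62, adjusted p = 0.000135, edgeR). Only the D2 libraries reached the level needed for testing there, so Dao entered that test through the strain where it was higher. Slc1a4, a carrier of neutral amino acids including serine, rose in NN-Astro (0.59, adjusted p = 0.000191) and fell in Inh-Lamp5 by 1.57 (0.000358). Slc1a4, Dao, Grina and Nsmf each passed in 2 types.

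The snATAC-seq table, 60 columns over 15 of the cell types and 27206 nuclei, gave a second readout at the same genes. Peaks within 1 kb of an annotated start were found for 5 members, 6 peaks in all, 2 of them at Grin1. Grin2d had none there, but the start given by RefSeq lay in a peak (chr7:45865940-45866708). Levels at the starts broadly separated neurons from glia for Grin1 (33.3 to 59.9 CPM in the neuronal types, 5.49 to 16.1 in the glial types) and Grin2a (54.4 to 80.0 against 6.48 to 29.2). The Grin2c peak (chr11:115266378-115267333) was highest in NN-Astro at 16.3 CPM against 0.813 to 8.50 elsewhere. The Grin2d peak was highest in the inhibitory types (22.0 to 25.2 CPM), and the Grin3a peak in Inh-MGE (53.3 CPM) and not in NN-OPC (22.8), where the transcript was highest.

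Between strains 1 of the 6 start peaks passed in 1 type and 0 in the other 14. In Exc-CA1-Galntl6, where 5.26% of all peaks passed, the Grin3a peak (chr4:49843701-49846014) had 31.8 and 33.5 CPM in B6 and 39.5 and 39.8 in D2, without overlap, a log2 fold change of 0.27 ± 0.08 (adjusted p = 0.0286, edgeR). The transcript was higher in D2 in the same type. This peak call was lost when any library was left out, with adjusted p of 0.342 and 0.183 without B6 library 2 and 3 and of 0.0565 and 0.0650 without D2 library 2 and 3. The Grin2a peak had 69.2 and 69.3 CPM in B6 and 69.7 and 71.4 in D2 in Exc-DG (0.02 ± 0.06), and did not pass in any type. The Grin2d peak at the RefSeq start passed in none. Over all peaks the share that passed was 5.97% in Exc-DG, 5.03% in Exc-CA3, 2.56% in Exc-CA1-Camk2d, 2.41% in Exc-Gpc6, 2.18% in Exc-CA1-Fras1, 1.39% in Exc-ENT and 0.473% in Exc-Cdh12. It was 0.870% in Inh-MGE, 0.355% in Inh-Lamp5 and 0.273% in Inh-CGE, and 0.198% in NN-Astro, 0.146% in NN-MGC, 0.0878% in NN-ODC and 0.0315% in NN-OPC. At unadjusted p under 0.05, 1 start peak passed in each of Exc-DG and Exc-ENT, 2 in each of Exc-CA1-Galntl6, Exc-CA1-Camk2d and Exc-CA3, and 0 in the other types.

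**Figure D5:**
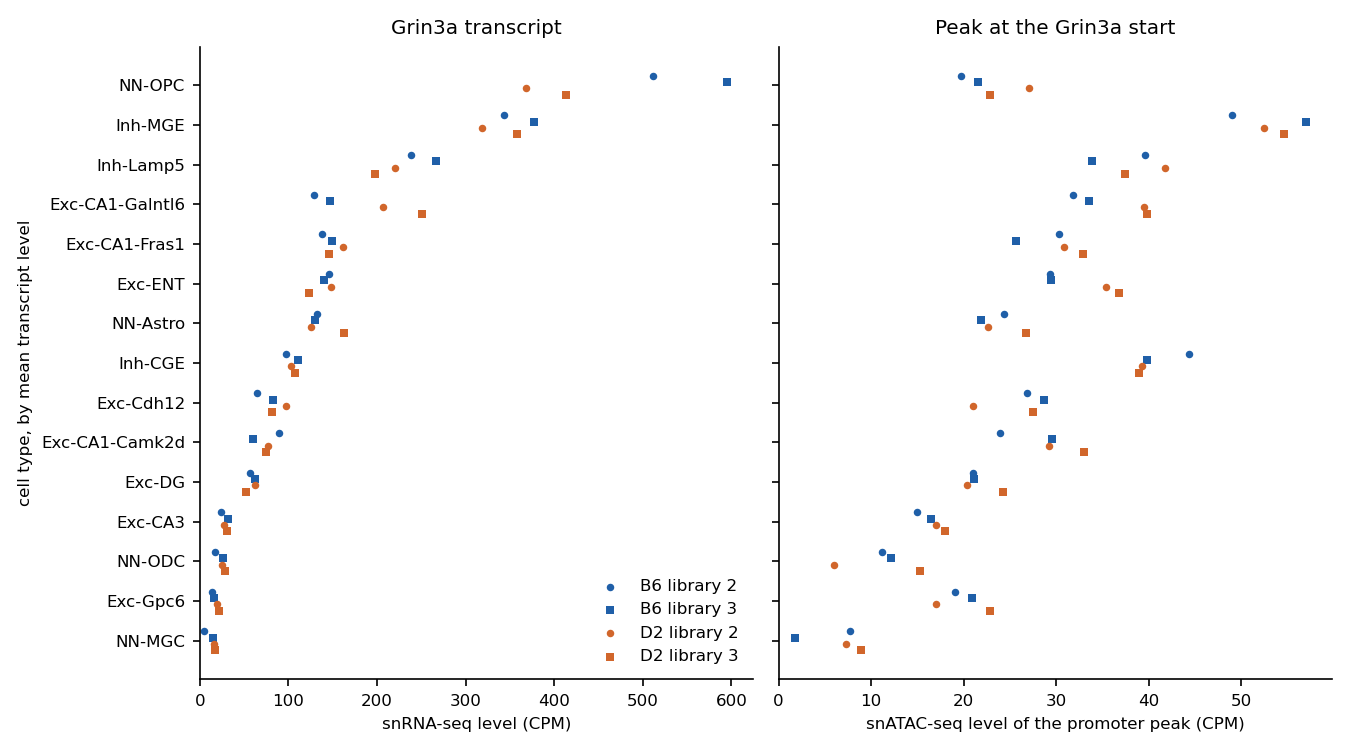
Grin3a transcript (left, snRNA-seq level in CPM) and the peak at the Grin3a start (right, snATAC-seq level in CPM) in the 15 cell types with both assays (y axis, ordered by the transcript), with 1 point per library, blue for B6 and orange for D2, circles for library 2 and squares for library 3. In Exc-CA1-Galntl6 both D2 points lie right of both B6 points in both panels, and NN-OPC leads the transcript (472 CPM) but not the peak (22.8 CPM).

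Among peaks overlapping the gene models, start peaks included, those of Grin3a were called in 5 of 35 tests in Exc-CA1-Galntl6 (14.3%, against 5.26% of all peaks there), 3 higher and 2 lower in D2. The 5 include the start peak given above, whose call was lost when any library was left out. Counts over gene models were made with all libraries in only. Of the 98 peaks tested in Grin2a in Exc-DG 2 passed (2.04%, against 5.97% of all peaks there), both lower in D2, and no other type had a called Grin2a peak. Over the 15 types 2.73% of all peak tests passed. For Grin2b 36 of 1217 tests did (2.96%), 18 in each direction, for Grin3a 7 of 282 (2.48%) and for Grin1 1 of 49 (2.04%), each near that share. Grin2a had 2 of 1028 (0.195%) and Grin2c 0 of 35. Grin2d had 9 of 94 (9.57%), 7 higher and 2 lower in D2, over at most 8 peaks per type, many of them tested in several types.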

How the data were processed

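The authors deposited raw counts, summed over the nuclei of each cell type in each library, for snRNA-seq symbols and snATAC-seq peaks. According to the submitters' processing notes they used Cell Ranger 6.0.2, Seurat 4.0.5, Cell Ranger ATAC 2.0.0 and mm10. Their methods add that D2 reads were mapped to an mm10 carrying D2 alleles, that intronic reads were kept, that predicted doublets were removed, and that MACS peaks of single samples were merged. The use of strand in counting was not given in the sources used here. Of the 24 samples 8 were used, and the 16 methylation samples were not analysed here. The columns name the strain and a library number (2 or 3) where the titles number replicates 1 and 2, so each column was placed in a strain only. Columns without a sample numbered 0.

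Counts were tested with edgeR 4.0.16 (R 4.3.3) in each cell type with TMM scaling, its quasi-likelihood test for strain (D2 minus B6) and Benjamini-Hochberg adjustment at 0.05, after filterByExpr for transcripts and a minimum of 10 counts over the 4 libraries for peaks. Each standard error was derived from the F statistic and the log2 fold change. Column totals were 139713 to 11352265 counts for snRNA-seq and 278059 to 27815541 for snATAC-seq, and the types with the fewest counts, CR-CR and NN-VLMC, gave the widest errors (biological coefficients of variation of 0.138 and 0.149, against 0.0584 in Exc-DG). Gene models were GENCODE vM21. The steps were tested on simulated counts.

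The members, gene lists and tests were chosen with earlier results of these data known. Besides the members, the genes named are the 3 most like each member in pattern (mean of at least 10 CPM in 1 type and counts in both strains) and, per list, the 2 called in most types, ties broken by list order, with the largest change in Exc-DG. Overlapping genes, Grina and Nsmf were named after their values were seen. The alternatives were DESeq2 1.42.0, RLE scaling, other filters, a replicate block by library number, each library left out, other CPM totals, another amount added to the ratio and other measures of likeness. The neuronal count of strain calls, crossed library numbers and the RefSeq start of Grin2d were chosen after seeing the data. Other steps and figures used numpy 2.4.6, matplotlib 3.10.9, pandas 2.3.3 and scipy 1.17.1 in Python 3.11.15.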

Additional observations from a re-analysis of the deposited data

Results flagged for a closer look

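For 4 subunits the strain difference was not the same in all 17 cell types, by the edgeR test of all terms of cell type by strain together. The adjusted p was 1.25e-05 for Grin2b, 5.24e-05 for Grin3a, 0.000126 for Grin2a and 0.000638 for Grin2d. The log2 fold changes of D2 minus B6 behind these ran from -0.88 (NN-ODC) to 0.96 (CR-CR) for Grin2b and from -0.46 (NN-OPC) to 0.74 (Exc-CA1-Galntl6) for Grin3a. For Grin2a they ran from -1.03 (NN-ODC) to 0.46 (CR-CR), and for Grin2d from -0.03 (Exc-DG) to 1.52 (NN-ODC).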

How the results depend on the processing

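The 20 strain calls became 11 with DESeq2, 10 when counted in neuronal cell types only and 14 to 19 when each library was left out. No called pair changed sign under any alternative run. The 4 members whose strain difference varied between cell types became 2 in neuronal types only and 3 to 4 without each library. The single start peak became 0 when any library was left out (0 to 0). Of the 18 genes nearest in pattern, 6 were also nearest by Spearman's correlation and 4 in neuronal types only. Types with both D2 libraries below both B6 libraries in the Grin2a to Grin2b ratio numbered 13 to 15 without each library. Over all alternatives the called pairs stayed past the threshold in 144 refits and lost it in 37. Of the 6 highest levels 3 stayed within the spread of the libraries under other CPM totals and the others, Grin1, Grin2a and Grin2b in their highest type, moved down (543 to 473 CPM by plain totals for Grin1).

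Same-numbered libraries did not deviate together: the correlation of their deviations lay between -0.16 and 0.07 over the 17 types, over 0.1 in 0 of them, so the numbers are not taken as pairs. With the library number as a replicate block 19 strain calls and 1 peak call passed, and in Inh-MGE, the single type refitted with crossed numbers, its 1 call passed. No block was run for the test between cell types, where library is already a term. Depth limited Grin2c outside astrocytes, Grin2d in glia and all members in CR-CR and NN-VLMC.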
